A study of Caenorhabditis elegans with 2 samples.

Results

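Peaks that were listed in a single replicate are the subject here, and they are called unshared peaks. Chromatin immunoprecipitation followed by sequencing (ChIP-seq) measured where tagged CEH-91 lay along the Caenorhabditis elegans genome, and each of 2 biological replicates has its own deposited list of peaks. A peak counted as unshared when it had no base pair in common with any peak in the other replicate's thresholded list. By that rule 385 of the 1180 listed peaks of replicate 1 (32.6%, exact 95% interval 30.0 to 35.4) and 178 of the 974 of replicate 2 (18.3%, 15.9 to 20.8) were unshared, 563 of 2154 in all. The other 795 and 796 peaks are called shared and serve as the comparison. The members were chosen by measured values, namely position and the irreproducible discovery rate that decided which peaks were listed, so signal, rate, width and presence in other lists are given below as descriptions without a test. Location, chromosome, gene groups and sequence were not used by the rule, and location and chromosome were tested.

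Per the labels, both samples were whole young adult worms of 62.5 hours, grown from synchronised starved L1 larvae, and their own ceh-91 gene carries a TY1, EGFP and 3xFLAG tag made by CRISPR. The antibody recognises GFP, so the tag was what it pulled down. No untagged strain, input signal or second condition was analysed here, and a single control alignment served both replicates per the deposited notes. Whole worms mix all tissues, so the cells in which a site was occupied are unknown.

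CEH-91 belongs to the homeodomain proteins, transcription factors that bind short AT-rich sequences through a helix-turn-helix fold and regulate nearby genes. In ChIP-seq a peak marks an excess of recovered fragments and not by itself a functional binding site. The irreproducible discovery rate (IDR) ranks peaks by how poorly they repeat between a pair of inputs. The global rate of a peak is the expected share of irreproducible peaks among those ranked at least as high. No listed peak had a rate above 0.01, and the listed peaks were 3.32% of the 35497 ranked peaks of replicate 1 and 2.59% of the 37659 of replicate 2. A rate of at most 0.01 was met by 3.48% and 2.87%, since 56 peaks of replicate 1 and 108 of replicate 2 at that rate are not in the thresholded lists. The conservative list, which took the replicates as its inputs, held 1612 peaks, 3.04% of its 53026 ranked peaks.

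The sequences below are the summits, with 50 bases on either side, of the strongest unshared peaks on chromosomes II to V, 3 per replicate, and they are shown because the strongest unshared peaks of the replicates differed in kind. All are on the plus strand of ce11 (WBcel235), from the NCBI genome sequence. Capitals mark each copy of the 12-base word that occurs most often, where it occurs more than 1 time. The replicate 1 windows are III:10203064-10203164, upstream of chc-1, IV:991261-991361, upstream of egrh-2 and lep-2, and II:14410893-14410993, upstream of dsb-2.
chc-1 window, replicate 1: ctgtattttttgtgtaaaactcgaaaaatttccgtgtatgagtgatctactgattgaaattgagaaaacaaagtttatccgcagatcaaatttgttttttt
egrh-2 and lep-2 window, replicate 1: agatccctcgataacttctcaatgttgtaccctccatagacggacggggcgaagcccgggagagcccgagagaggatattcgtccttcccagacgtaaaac
dsb-2 window, replicate 1: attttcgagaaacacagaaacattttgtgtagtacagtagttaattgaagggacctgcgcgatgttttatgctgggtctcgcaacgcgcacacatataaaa
The replicate 2 windows are III:3770523-3770623, III:3335088-3335188 and III:2499429-2499529, all of them intergenic.
III:3770523 window, replicate 2: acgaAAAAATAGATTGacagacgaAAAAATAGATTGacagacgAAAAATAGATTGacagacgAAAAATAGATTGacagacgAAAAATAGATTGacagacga
III:3335088 window, replicate 2: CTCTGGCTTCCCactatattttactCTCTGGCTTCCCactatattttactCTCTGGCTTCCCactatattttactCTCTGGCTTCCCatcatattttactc
III:2499429 window, replicate 2: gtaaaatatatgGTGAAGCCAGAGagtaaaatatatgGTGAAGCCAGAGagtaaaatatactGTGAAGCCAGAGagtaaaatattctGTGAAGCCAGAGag
No 12-base word recurred in the replicate 1 windows. In replicate 2 the word recurred 5 times in the first window and 4 times in each of the other windows. The windows at III:3335088 and III:2499429 repeat every 25 bases, and the peaks they come from had 20 of their 12-base words in common when both strands were read, of 76 and 100 different words.

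Unshared peaks were mostly weak members of their lists. Their median signal, in the authors' units per peak, was 70.4 (quartiles 62.0 to 82.1) against 117 (88.1 to 176) for shared peaks in replicate 1. In replicate 2 it was 47.9 (42.6 to 54.6) against 73.2 (54.7 to 105). The ranges overlapped, from 13.0 to 155 for unshared and 13.6 to 882 for shared peaks of replicate 1, and from 7.94 to 151 and 9.41 to 476 in replicate 2. With each list cut into 4 equal bins by signal, unshared peaks made up 0.678%, 14.9%, 41.4% and 73.6% of the bins of replicate 1 from strongest to weakest. In replicate 2 the shares were 2.47%, 3.69%, 25.1% and 41.8%. Only 14 unshared peaks of replicate 1 and 9 of replicate 2 exceeded the median signal of the shared peaks of the same list. Unshared peaks also had the default width of their list more often, 300 bp in 98.2% against 68.2% in replicate 1 and 270 bp in 97.2% against 75.1% in replicate 2, where 99.3% of all ranked peaks of either replicate had it.

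**Figure D1:**
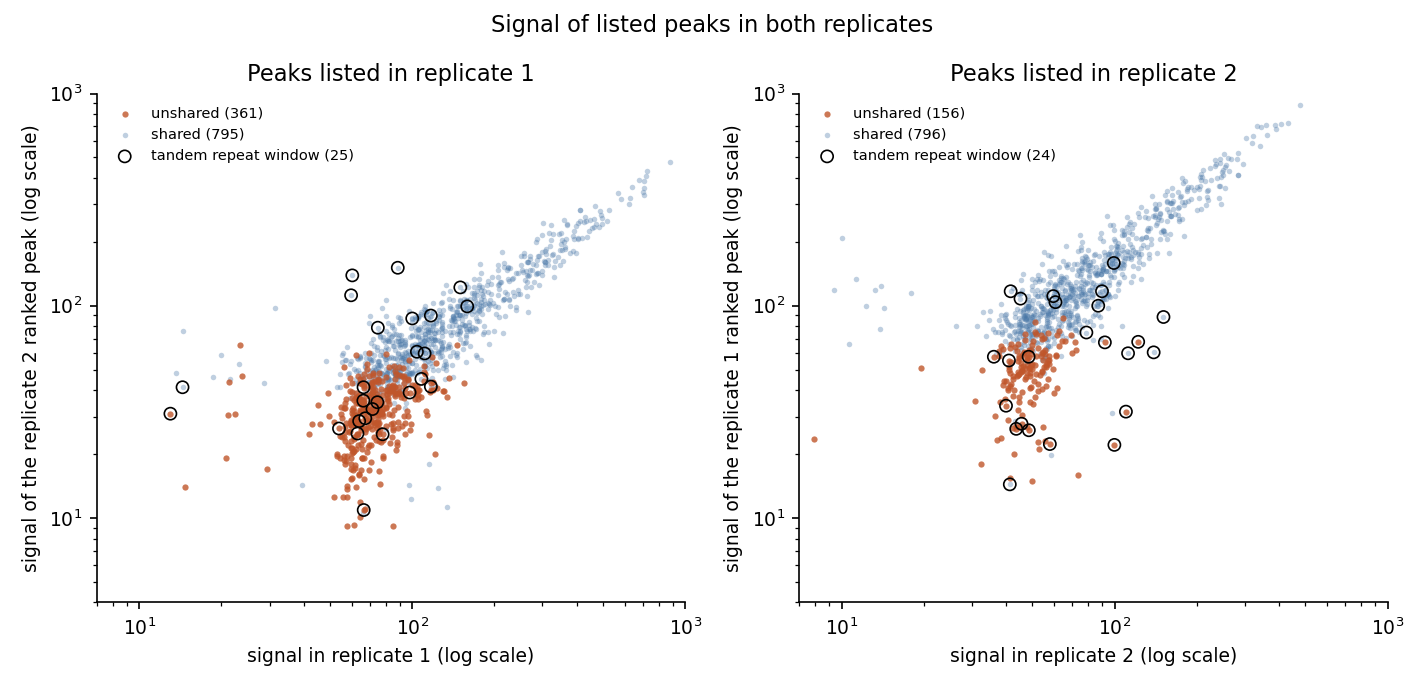
Signal of listed peaks in their own replicate (horizontal, log scale) against the signal of the other replicate's overlapping ranked peak of lowest rate (vertical, log scale). Orange points are unshared peaks, blue points shared peaks and black circles peaks whose window is a tandem repeat; the 24 unshared peaks of replicate 1 and 22 of replicate 2 with no ranked peak under them are not drawn. Unshared peaks lie at the low end of the shared cloud in both panels, and several circled points stand off it.

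Most unshared places had a ranked peak in the other replicate that did not reach its threshold. For replicate 1, 361 of 385 (93.8%) overlapped a ranked peak of replicate 2, and for replicate 2, 156 of 178 (87.6%) overlapped one of replicate 1. None of these ranked peaks had a global rate of 0.01 or less, so none of the peaks left out of the lists at that rate lay under an unshared peak. For replicate 1, 98 unshared peaks had a rate between 0.01 and 0.05 in replicate 2, 41 between 0.05 and 0.1, 92 between 0.1 and 0.5, 130 above 0.5, and 24 had no ranked peak. For replicate 2 the counts were 46, 16, 44, 50 and 22. The peaks at rates of 0.01 to 0.05, just past the threshold, were 25.5% of the unshared peaks of replicate 1 and 25.8% of those of replicate 2. The signal of the ranked peak in the other replicate stood at a median of the 95.3th percentile of that replicate's ranked list for replicate 1 peaks and at the 94.9th for replicate 2 peaks. For shared peaks the same medians were 98.7 and 98.8.

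Peaks on either side of the threshold could have nearly the same rate. The unshared peaks of replicate 1 nearest to it lay upstream of T12G3.4 (IV:12047594-12047893), with a rate of 0.01 in replicate 2 after rounding, and of cpsf-1 (IV:2033097-2033396), which encodes a cleavage and polyadenylation factor, with 0.0101. The shared peaks just inside lay near cel-mir-243, with 0.00982, and upstream of zipt-9, with 0.00971. The signal of the cpsf-1 peak was 77.2 in replicate 1 and 44.0 in replicate 2, and that of the zipt-9 peak was 73.7 and 43.4. In replicate 2 the nearest unshared peaks lay at smg-9, a gene of nonsense-mediated mRNA decay, with a rate of 0.01 in replicate 1 after rounding, and at pcaf-1, which encodes a histone acetyltransferase, with 0.0102. The shared peak just inside lay upstream of rps-4, with a rate of 0.0099. Unshared peaks were rarely near misses in position. The median distance to the nearest listed peak of the other replicate was 22295 bp in replicate 1 and 20610 bp in replicate 2, and 6 and 7 peaks lay within 200 bp of one. There were 4 places where unshared peaks of both replicates lay within 200 bp of each other, at Y75B12B.1 (52 bp apart), on chromosome III at 4015577 (65 bp), at T22C1.1 (138 bp) and at vps-37 (159 bp), an ESCRT-I subunit gene.

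The conservative list held most unshared peaks. It overlapped 272 of 385 (70.6%, 65.8 to 75.2) in replicate 1 and 119 of 178 (66.9%, 59.4 to 73.7) in replicate 2, against 99.7% and 99.5% of shared peaks. The list made from pooled reads overlapped 91.4% and 74.2% of unshared peaks, against 99.5% and 99.2% of shared peaks. Presence in the conservative list followed the other replicate's rate. It was 96 of 98 in replicate 1 and 44 of 46 in replicate 2 at rates of 0.01 to 0.05, and 68 of 130 and 26 of 50 at rates above 0.5. Of those with no ranked peak in the other replicate, 3 of 24 and 3 of 22 were in the conservative list. Unshared peaks absent from both the conservative and the pooled list numbered 30 and 37. Seen from the conservative list, 816 of its 1612 peaks (50.6%) lay on shared peaks, 285 (17.7%) on unshared peaks of replicate 1 and 128 (7.94%) on unshared peaks of replicate 2, while 383 (23.8%) lay on no listed peak of either replicate. Both lists use the reads of these same replicates, so presence there is not an independent check.

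**Figure D2:**
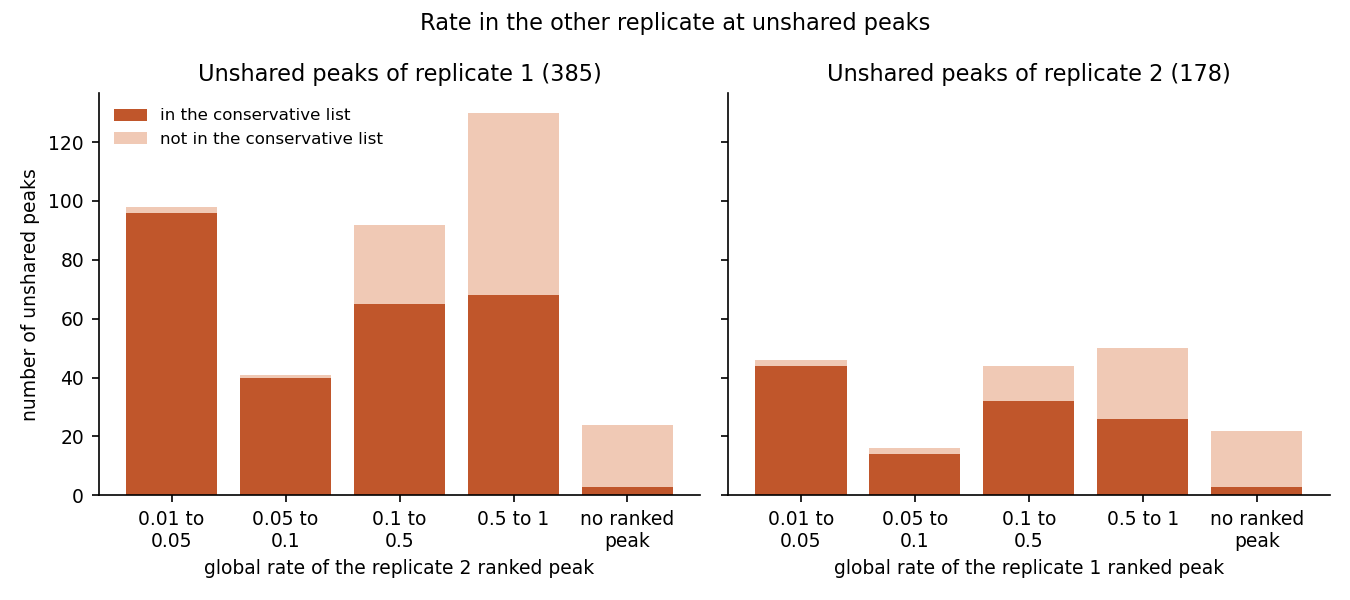
Number of unshared peaks (vertical) by the global rate of the overlapping ranked peak in the other replicate (horizontal), with dark bars for peaks in the conservative list and light bars for the rest. In both panels nearly all peaks at rates of 0.01 to 0.05 are dark (96 of 98 and 44 of 46), and few of those without a ranked peak are (3 of 24 and 3 of 22).

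Location differed between unshared and shared peaks in both replicates. Each class was compared by Fisher's exact test, two-sided, with Benjamini-Hochberg adjustment over 8 tests. A summit lay in a promoter when any transcript of the annotation started within 200 bp upstream or 1000 bp downstream of it, and summits elsewhere were placed in exons, in introns or between genes. Promoters held 283 of 385 unshared peaks (73.5%) against 706 of 795 shared peaks (88.8%) in replicate 1, an odds ratio of 0.35 (95% interval 0.255 to 0.48, adjusted exact p = 6.7e-10). In replicate 2 they held 128 of 178 (71.9%) against 709 of 796 (89.1%), an odds ratio of 0.314 (0.212 to 0.467, adjusted exact p = 1.4e-07). Among ranked peaks that did not pass, promoters held 39.6% in replicate 1 and 39.9% in replicate 2. Introns held 9.09% of unshared against 2.89% of shared peaks in replicate 1 (odds ratio 3.36, adjusted exact p = 2e-05) and 11.2% against 3.02% in replicate 2 (4.07, adjusted exact p = 3.1e-05). Exons held 19 unshared against 6 shared peaks in replicate 1 (odds ratio 6.83, adjusted exact p = 2e-05) and 5 of 178 against 5 of 796 in replicate 2 (4.57, adjusted exact p = 0.022). Intergenic sequence held 12.5% against 7.55% in replicate 1 (odds ratio 1.74) and 14.0% against 7.29% in replicate 2 (2.08), with an adjusted exact p = 0.0081 in each. These p-values count peaks of these libraries and not animals. By the rule, shared peaks of the replicates overlap each other, so both comparisons have largely the same places as their reference. A like result in both replicates is therefore not independent support, and the same holds for the chromosomes below.

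Signal moved with location, so the promoter share was also read within the 4 signal bins. From strongest to weakest, promoters held 100% of unshared (2 peaks), 79.5%, 81.1% and 67.7% in replicate 1, against 90.8%, 89.2%, 90.2% and 76.9% of shared peaks. In replicate 2 they held 33.3% (2 of 6 peaks), 66.7%, 80.3% and 69.6% of unshared, against 89.9%, 90.2%, 90.1% and 84.5% of shared peaks. The unshared share was lower in every bin apart from the strongest of replicate 1. Against only the weaker shared peaks, those at or below the median signal of the shared set, the promoter and intron differences still passed in both replicates, as did exons in replicate 1 and intergenic sequence in replicate 2. The intergenic difference in replicate 1 (odds ratio 1.52, adjusted exact p = 0.092) and the exon difference in replicate 2 (3.81, adjusted exact p = 0.11) no longer did. The weaker shared peaks were not matched to unshared peaks in signal. The lower quartile of all shared peaks, 88.1 in replicate 1 and 54.7 in replicate 2, lay above the upper quartile of unshared peaks, 82.1 and 54.6. This reference thus stayed stronger as a set, and the comparison cannot separate location from signal. The intergenic difference of replicate 2 was also lost, at an odds ratio of 1.21 and an adjusted exact p = 0.6, when peaks in tandem repeats were left out of both sets, a comparison added after seeing the data.

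**Figure D3:**
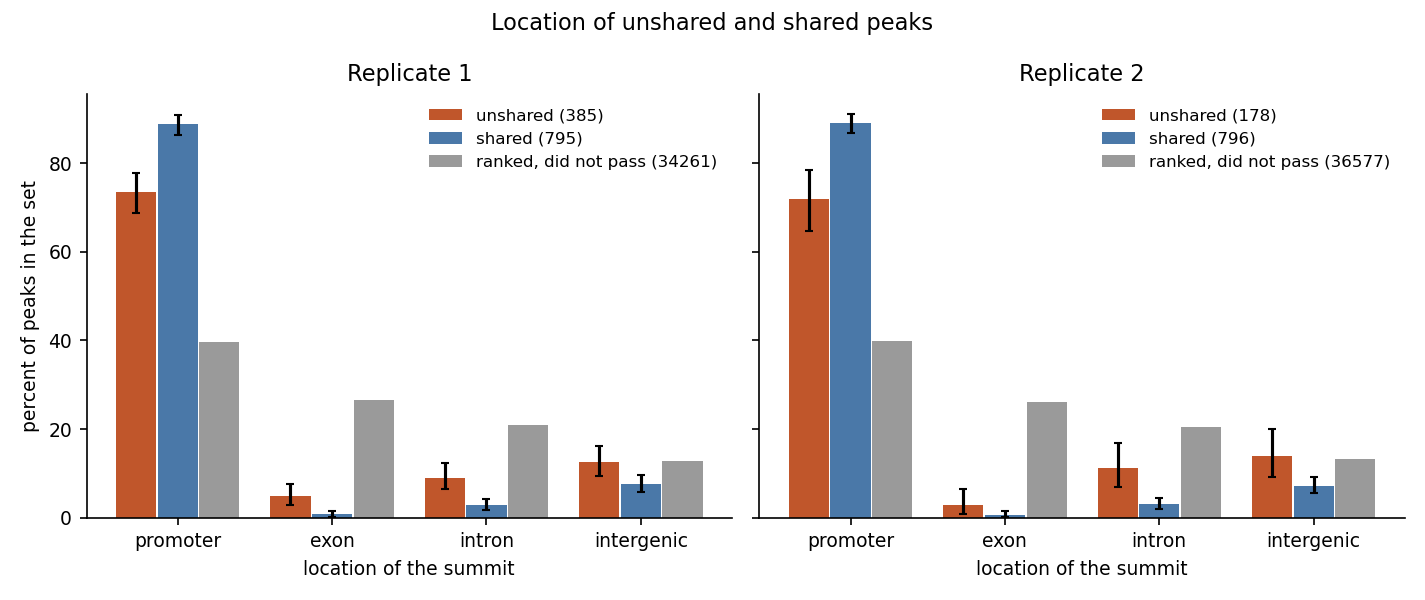
Percent of unshared peaks (orange), shared peaks (blue) and ranked peaks that did not pass (grey) whose summit lay in each location class, with exact 95% intervals over peaks on the unshared and shared bars. Unshared peaks lie between the other sets at promoters, with 73.5% and 71.9%, and stand above shared peaks at exons, introns and intergenic sequence.

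Unshared peaks also reached protein-coding starts less often. With promoters defined by protein-coding starts alone, one was in reach of 59.2% of unshared peaks in replicate 1, against 79.4% of shared peaks, an odds ratio of 0.377 (0.289 to 0.493, adjusted exact p = 8.9e-12). In replicate 2 one was in reach of 60.7%, against 79.6%, an odds ratio of 0.394 (0.279 to 0.558, adjusted exact p = 7.9e-07). Starts of 2 or more protein-coding genes were in reach of 21.8% of unshared peaks, against 35.8% of shared peaks, in replicate 1. In replicate 2 these shares were 23.6% and 36.2%. The distance from summit to start was alike, a median of 232 bp upstream for unshared and 210 bp for shared peaks in replicate 1, and 231 and 213 bp in replicate 2. Promoters of noncoding genes alone held 14.3% of unshared against 9.43% of shared peaks in replicate 1, and 11.2% against 9.42% in replicate 2. A tRNA gene start was in reach of 25 of 385 unshared peaks (6.49%, 4.25 to 9.44) against 17 of 795 shared peaks (2.14%, 1.25 to 3.40) in replicate 1. In replicate 2 it was in reach of 6 of 178 (3.37%, 1.25 to 7.19) against 17 of 796 (2.14%, 1.25 to 3.40). Apart from the protein-coding starts, these shares and distances were not tested.

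No chromosome passed the test in either replicate, by two-sided Fisher's exact test with adjustment over 12 tests. Unadjusted, 2 of the 12 fell under 0.05, X in replicate 1 (exact p = 0.0044) and I in replicate 2 (exact p = 0.041). Chromosome X came nearest, with 14 of 385 unshared peaks (3.64%) against 8 of 795 shared peaks (1.01%) in replicate 1, an odds ratio of 3.71 (1.54 to 8.93, adjusted exact p = 0.053). In replicate 2 it held 5 of 178 (2.81%) against 8 of 796 (1.01%), an odds ratio of 2.85 (0.92 to 8.81, adjusted exact p = 0.21). The replicate 1 difference passed at an adjusted exact p = 0.028 when gaps of up to 200 bp also counted as shared and at 0.022 without tandem repeats. Against the weaker shared peaks its odds ratio was 2.11 (0.841 to 5.28, adjusted exact p = 0.49). In replicate 1, 11 of the 14 unshared peaks on X lay in the weakest signal bin, as did 3 of the 8 shared ones. Over the 8 alternatives for X in replicate 1 the adjusted p ran from 0.022 to 0.57. X held 14.2% and 15.4% of ranked peaks that did not pass. The strongest unshared peaks on X lay upstream of C17H11.4 (signal 97.8 in replicate 1 and 39.0 in replicate 2) and of chkr-1 and T08D2.6 (95.8 and 31.8). In replicate 1, 2 of the 14 overlapped each other at C30E1.9, and in replicate 2 the 5 included peaks upstream of eef-1A.2, which encodes translation elongation factor 1 alpha, and of kin-29, which encodes a salt-inducible kinase. Unshared peaks of replicate 2 lay on chromosome III in 28.1% against 21.5% of shared peaks and on chromosome I in 18.0% against 25.4%, each with an adjusted exact p = 0.21. With each chromosome cut into 3 equal stretches, the middle one held 38.7% of unshared against 39.5% of shared peaks in replicate 1 and 29.8% against 39.7% in replicate 2, a difference that was not tested.

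The strongest unshared peaks of replicate 1 lay upstream of genes, as all 10 were in promoters. The peak at chc-1 (III:10203041-10203159), the clathrin heavy chain gene, had a signal of 155 in replicate 1 and 43.4 in replicate 2, where its rate was 0.0155. The peak at egrh-2 and lep-2 (IV:991161-991460), the second a Makorin family gene, had 146 and 65.1, with a rate of 0.145 in replicate 2. Both had the lowest rate the lists give, 1e-05, in replicate 1 and were in the conservative list. A pair of the 10 lay at genes of meiotic recombination. The peak upstream of dsb-2 (II:14410793-14411092), needed for meiotic double-strand breaks, had a signal of 134 in replicate 1 and 37.1 in replicate 2, at a rate of 0.709 there. The peak upstream of cosa-1 (III:2725844-2725920), a crossover gene, had 131 and 39.5, at a rate of 0.624. The peak upstream of uba-1 (IV:9995025-9995324), which encodes the ubiquitin-activating enzyme, had 130 and 39.8, at a rate of 0.015. The peak at cux-7, C07H6.2 and lig-4 (III:7520698-7520997), where lig-4 encodes DNA ligase IV, had 122 and 53.6, at a rate of 0.0129. The remaining peaks of the 10 lay at ZK973.11, T22C1.1, the pseudogene WBGene00010112 and Y75B12B.1, with signals of 136, 135, 123 and 122 in replicate 1. The peak at T22C1.1 had no ranked peak of replicate 2 under it but lay 138 bp from a peak listed there, and the one at Y75B12B.1 lay 52 bp from one. Of the 10, only the Y75B12B.1 peak was absent from the conservative list.

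The strongest unshared peaks of replicate 2 were of another kind, with 7 of the 10 intergenic and most of them in tandem repeats, stretches in which a short unit of sequence follows itself many times. A window was called a tandem repeat when at least 70% of its bases equalled the base a fixed 5 to 50 positions on, a threshold set after seeing these sequences. A threshold of 80% had been tried first and was lowered after the III:3770508-3770628 window, in which a repeat is visible, stood at 78%. At 70%, 9 of the 10 strongest were tandem repeats, against 0 of the 10 strongest unshared peaks of replicate 1, and at 80% the counts were 6 and 0. In addition, 7 of the 10 in replicate 2 and 1 in replicate 1 were at least 90% soft-masked, meaning marked as repeats or low-complexity sequence in the reference. Over all peaks, tandem repeats at the 70% threshold made up 12 of 385 unshared (3.12%, 1.62 to 5.38) against 14 of 795 shared peaks (1.76%, 0.966 to 2.94) in replicate 1. In replicate 2 they made up 21 of 178 (11.8%, 7.45 to 17.5) against 12 of 796 (1.51%, 0.781 to 2.62). All 6 unshared peaks in the strongest signal bin of replicate 2 were tandem repeats, against 4 of 237 shared peaks there, and 4 of the 6 were at 80%. Neither share was tested, since the sequence class was defined after the data were seen.

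The repeats fell into families. Listed peaks that had at least 20 different 12-base words in common with the strongest, I:6773054-6773152, carry the 25-base repeat shown above. The peak itself had a signal of 151 in replicate 2, with no ranked peak in replicate 1. The III:3335003-3335272 peak had 67.6 in replicate 1 and 122 in replicate 2, at a rate of 0.121 in replicate 1. The III:2499423-2499534 peak had 31.7 and 110, at a rate of 0.801, and the III:2497100-2497369 peak 27.8 and 45.6, at 0.909. The family also held shared peaks, at III:2497849-2498118 with a signal of 60.3 in replicate 1 and 139 in replicate 2, and at V:14756623-14756892 with 59.7 and 112. In all peaks of this family with a value in both replicates, signal was higher in replicate 2. The family of III:3770508-3770628 (138 in replicate 2, no ranked peak in replicate 1) held 7 further unshared peaks of replicate 2 and none of replicate 1. Among them were I:13273660-13273779 near the pseudogene WBGene00010804, with 137 and no ranked peak in replicate 1, V:658180-658449 upstream of the chemoreceptor gene srh-246, with 22.1 in replicate 1 and 99.8 in replicate 2, and III:1252883-1253152, with 93.8 and no ranked peak in replicate 1. That last peak lay 112 bp from a listed peak of replicate 1, and the shared peak beside it, III:1252554-1252698, had 88.5 in replicate 1 and 151 in replicate 2. A family with a 45-base shift, that of II:695144-695413 (67.2 in replicate 1 and 92.1 in replicate 2), did not favour replicate 2 throughout. It held unshared peaks of replicate 1 at V:6299713-6300012, with 71.5 in replicate 1 and 32.6 in replicate 2, and at IV:14476727-14477026, with 66.2 and 35.7. Its shared peaks of replicate 1 overlap each other, so they are not separate places, and both were set against the same replicate 2 peak, II:698354-698623. The peak at II:698371-698670 had 66.3 and 41.3, and that at II:698573-698872 had 14.4 and 41.3. Of its other unshared peaks of replicate 2, some were higher in replicate 1, as at IV:15188360-15188629 with 55.2 and 41.0. Sequence in common with other listed peaks was not limited to replicate 2. By the same count of words, the T22C1.1 peak of replicate 1 (I:7935724-7935878), not a tandem repeat, was related to 33 listed peaks, 5 unshared and 28 shared.

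The signal of both replicates was set side by side for repeat and other windows. The log2 ratio of signal, replicate 1 over replicate 2, had a median of 0.74 over the 784 shared peaks of replicate 2 outside tandem repeats, where replicate 2 was higher in 10. Over its 12 shared peaks in tandem repeats the median was 0.29, with replicate 2 higher in 5. For unshared peaks of replicate 2, where this ratio is part of what chose them, the medians were -0.72 over 12 peaks in repeats and 0.07 over 144 others. Another 9 unshared repeat peaks and 13 others had no ranked peak in replicate 1. Of the 21 unshared repeat peaks of replicate 2, 6 were in the conservative list, against 113 of the 157 other unshared peaks. Unshared peaks of replicate 1 did not show these gaps, with a median log2 ratio of 1.16 over 11 peaks in repeats and 1.18 over 350 others, and with 8 of 12 repeat peaks in the conservative list, against 264 of 373 others. How reads that match several copies of a repeat were placed is not given in the sources used here, and its part in these values was not tested. Outside the repeats, the strongest unshared peak of replicate 2 lay at snx-3, a sorting nexin gene, and rad-54.L, a recombinational repair gene (I:9064597-9064866), with 15.9 in replicate 1 and 73.6 in replicate 2, at a rate of 0.0244. The 15.9 belongs to an offset peak, I:9064747-9065046, taken for its lowest rate and at the 9.91th percentile of replicate 1. It need not be the highest signal of replicate 1 at this place. The snx-3 peak was followed among peaks in the conservative list by one at C37H5.5 and hsp-6, which encodes the mitochondrial Hsp70 chaperone (V:4826987-4827256), with 61.6 and 72.2, and one at hrpa-1, which encodes an RNA-binding protein of the hnRNP A1 family (IV:3338799-3339068), with 67.3 and 71.8.

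Genes were grouped by 33 lists and counted when a listed summit lay in their promoter. Of 12337 protein-coding genes with a ranked peak in the promoter, 444 (3.60%) had unshared listed peaks only and 917 had a shared peak, so unshared peaks alone accounted for 444 of 1361 listed genes (32.6%, 30.1 to 35.2). Among ribosomal protein genes 9 of 50 were listed by unshared peaks alone (18.0%, 8.58 to 31.4). The strongest of the 9 were rps-14 and rpl-36, which share a peak (III:7179719-7180018) with 104 in replicate 1 and 42.0 in replicate 2, and rpl-28, with 99.5 and 42.4. The other lists of protein synthesis were small, with 2 of 10 translation factor genes (eif-3.B and eef-1A.2), 3 of 6 mitochondrial ribosomal protein genes (mrpl-49, mrpl-28 and mrps-35) and 2 of 4 aminoacyl-tRNA synthetase genes (pars-1 and hars-1). The mrpl-49 peak is the one counted for rpl-28. Some genes named here and below were not the nearest to their peak, as with hars-1, 457 bp from the summit, where T11G6.2 started 4 bp away. Protein folding and turnover gave 2 of 16 chaperone genes (hsp-6 and cct-6) and 1 of 10 proteasome genes (pas-4). Splicing gave 1 of 16 (snr-1, an Sm protein gene), and oxidative phosphorylation 3 of 12 (cyc-1, cox-6A and atp-3). Histone genes gave 3 of 11, vacuolar ATPase genes 0 of 2, C-type lectin genes 2 of 5, cuticle collagen genes 1 of 3, and cytochrome P450 and UDP-glucuronosyltransferase genes 2 of 4. No list of protein-coding genes with 10 or more listed members had a share above the 32.6% of all listed genes, and lists this small have wide intervals.

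For cell division and germline genes the shares listed by unshared peaks alone had intervals that include the 32.6% of all listed protein-coding genes. Among cell cycle genes 4 of 27 (14.8%, 4.19 to 33.7) were listed by unshared peaks alone. They were mdf-2, the Mad2 spindle checkpoint gene, with a signal of 118 in replicate 1 and 57.1 in replicate 2, cye-1, which encodes cyclin E, with 82.1 and 38.9, wee-1.3, which encodes an inhibitory kinase of the cell cycle, with 71.2 and 43.6, and polh-1, a translesion polymerase gene, with 69.7 and 54.0 at a peak of replicate 2 that also serves rps-22. Kinetochore and centromere genes gave 4 of 17 (23.5%, 6.81 to 49.9), namely cls-2, kbp-3, hcp-6 and him-10, with signals of 59.2, 57.3, 56.0 and 40.4 in the replicate that listed them. The cls-2, kbp-3 and hcp-6 peaks were in the conservative list. The him-10 peak had no ranked peak in replicate 1 and was in neither the conservative nor the pooled list. Germline genes gave 5 of 30 (16.7%, 5.64 to 34.7). These were glh-1, a Vasa family helicase gene (86.3 in replicate 1 and 49.0 in replicate 2), glp-1, a Notch receptor gene (63.2 and 46.9), and, from the replicate 2 list, pgl-3, a P granule gene (51.2 and 55.9), nos-3, a Nanos family gene (50.6 and 49.7), and msh-5, a crossover gene (66.3 and 44.1). All 5 germline peaks were in the conservative list. Among chromatin genes 2 of 12 were listed by unshared peaks alone, mes-2, which encodes a Polycomb methyltransferase (75.4 and 35.1), and let-418, which encodes a Mi-2 remodeler (59.5 and 28.9).

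Of all 12337 protein-coding genes with a ranked peak, 1361 (11.0%) were listed by a peak of either kind, against which the lists of 17 or fewer genes below can show little. No muscle, intestine, neuron or hypodermis marker, vitellogenin, major sperm protein or neuropeptide gene had a listed promoter peak of either kind, out of 12, 11, 13, 10, 3, 17 and 74 with a ranked peak. Among 574 chemoreceptor genes with a ranked peak 2 were listed by unshared peaks alone and 1 by a shared peak, 0.523% in all, and among 151 nuclear hormone receptor genes 1 and 3, 2.65% in all. These differences from 11.0% were not tested. Of 39 homeobox genes of the ceh series with a ranked peak, ceh-92 was the single one listed, by an unshared peak of replicate 1 (III:11581447-11581746) that lay 3 bp upstream of its start. Its signal was 88.9 in replicate 1 and 26.4 in replicate 2, where the rate was 0.873, and it was in the conservative list.

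Noncoding genes varied by kind. Of 57 listed tRNA genes 35 (61.4%, 47.6 to 74.0) were listed by unshared peaks alone, 28 through replicate 1 and 7 through replicate 2. All listed protein-coding genes gave 32.6%, but neighbouring tRNA genes can have a peak in common and no test was made. The strongest 3 were WBGene00014564 (II:12677937-12678236), with 94.2 in replicate 1 and 27.9 in replicate 2, WBGene00022945 (82.6 and 39.7) and WBGene00023062 (76.4 and 14.4). The 14.4 belongs to a peak, III:5305958-5306227, offset from that of replicate 1 at III:5305772-5306071 and taken for its lowest rate. piRNA genes gave 31 of 57 (54.4%, 40.7 to 67.6), but these lie in clusters and 6 of the 31 share a single peak, IV:14224960-14225259. Small nuclear and spliced leader RNA genes gave 11 of 24 (45.8%), pseudogenes 19 of 44 (43.2%), snoRNA genes 20 of 63 (31.7%) and miRNA genes 5 of 18 (27.8%), where cel-mir-229, cel-mir-64, cel-mir-65 and cel-mir-66 share a peak at III:2172115-2172414.

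**Figure D4:**
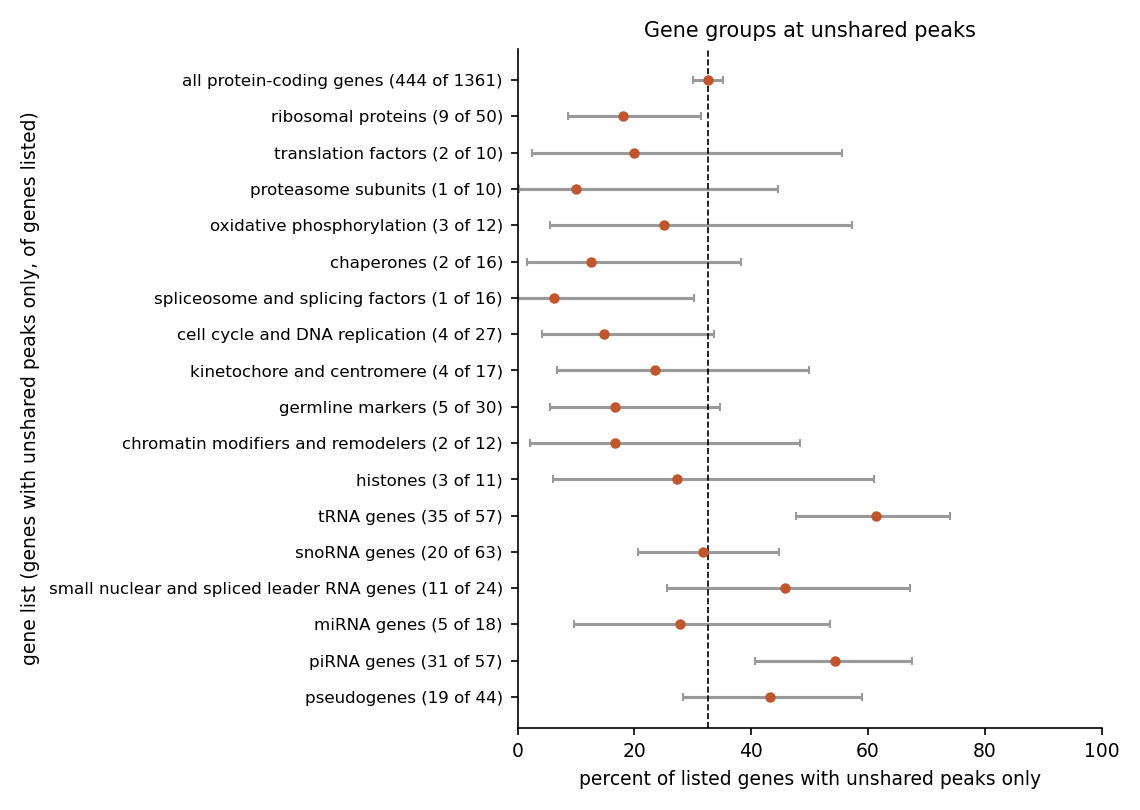
Percent of genes with a listed promoter peak that had unshared peaks only (points), with exact 95% intervals over genes (bars), for lists with 10 or more listed genes. The dashed line marks all protein-coding genes at 32.6%, and tRNA genes lie at 61.4% while ribosomal protein genes lie at 18.0%.

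Short sequences were counted within 50 bases of each summit on both strands, beside ranked peaks that did not pass. The homeodomain core TAATTA occurred in 3.90% of unshared against 2.77% of shared peaks in replicate 1 and in 1.12% against 1.88% in replicate 2, with 3.09% and 3.13% of ranked peaks that did not pass. The E2F site TTTCCCGC occurred in 2.60% (1.25 to 4.72) of unshared against 3.90% (2.66 to 5.49) of shared peaks in replicate 1, and in 3.93% (1.60 to 7.93) against 3.77% (2.56 to 5.34) in replicate 2, where 0.797% and 0.692% of peaks that did not pass had it. TTTGAA, the cell cycle homology region, occurred in 23.6% against 25.8% in replicate 1 and 25.3% against 26.1% in replicate 2, with 20.9% of those that did not pass in either. The B box of tRNA genes, GTTCGANTC, occurred in 2.60% (1.25 to 4.72) of unshared against 0.252% (0.0305 to 0.906) of shared peaks in replicate 1, and in 1.12% (0.136 to 4.0) against 0.251% (0.0304 to 0.905) in replicate 2, with 0.598% and 0.552% of those that did not pass. None of the 4 motifs contains another. The median GC content of the windows was 43.6% for unshared and 45.5% for shared peaks of replicate 1, and 42.6% and 45.5% for those of replicate 2. A match is a description of these letters and not of a bound factor.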

How the data were processed

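The authors deposited ranked and thresholded peak lists per replicate and for comparisons of the replicates and of pooled reads, on ce11 per the labels and the deposited notes. Each peak's signal and −log10 global rate were used as deposited. No aligner or caller version is given in the sources used here. The lists hold no read counts, so depth is unknown and intervals cover counting error over peaks or genes only. The other replicate's value at a peak is that of its overlapping ranked peak of lowest rate. Summits were placed on Ensembl release 115 gene models for WBcel235, and coordinates are 1-based. Shares have exact Clopper-Pearson 95% intervals and odds ratios Woolf intervals (Python 3.11.15, pandas 2.3.3, SciPy 1.17.1); the overlap and test steps were tested on simulated data. The members, lists and tests were chosen with earlier results of these data known. The peaks named are the strongest per replicate, those without a ranked peak in the other, those in or out of the conservative list, those at the threshold, and up to 3 genes per list by signal; other named genes and the peaks on X and in repeats were chosen after their values were seen.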

Additional observations from a re-analysis of the deposited data

How the results depend on the processing

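Of 198 recomputed values, 184 counted as unchanged. Tested values among them kept their side of the threshold. Untested ones stayed within 1.5 times the count or within the interval of the share. Of the 184, 93 were chromosome tests that passed neither at first nor when recomputed, so the total says little about how firm the results are. No odds ratio that passed changed direction. Some chromosome odds ratios that did not pass changed direction at own rates of at most 0.001. They include II in replicate 2 (1.2 to 0.734) and III in replicate 1 (0.889 to 1.27). The numbers of unshared peaks moved by more than 1.5 times only when own peaks were held to a rate of at most 0.001. They were then 125 in replicate 1 and 50 in replicate 2, since fewer peaks enter. They also fell, from 385 to 287 and from 178 to 132, when the other replicate's ranked peaks were searched at rates of up to 0.05. The counts thus depend on the threshold in the other replicate. The promoter and intron differences passed under all 10 alternatives in both replicates, with promoter odds ratios of 0.321 to 0.426 and 0.258 to 0.423. The exon difference of replicate 2 was lost at own rates of at most 0.001 (odds ratio 6.12), against weaker shared peaks (3.81), with promoters of 500 bp upstream and 100 bp downstream (2.53) and with protein-coding starts only (1.12). The intergenic difference of replicate 1 was lost against weaker shared peaks (1.52) and with protein-coding starts only (1.42), and that of replicate 2 with the shorter promoters (1.54) and without tandem repeats at thresholds of 70% (1.21) and 80% (1.55). Chromosome X in replicate 1 passed when gaps of up to 200 bp counted as shared (3.80) and without tandem repeats at 70% (4.66) and 80% (4.63). Fewer peaks enter at the strict rate and without the repeats, and the cause of these changes was not tested. The repeat alternatives were chosen after seeing the data, the 80% threshold before the 70%. No paired analysis was possible because both replicates form 1 group, and neither could be left out because the rule needs both.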
